A study of Mus musculus with 20 samples.

Results

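The transcripts described here are 5 targets of the transcription factor ATF4, namely Ddit3 (ENSMUST00000026475), Asns (ENSMUST00000031766), Trib3 (ENSMUST00000040312), Chac1 (ENSMUST00000028780) and Sesn2 (ENSMUST00000030724). They were chosen by identifier, and a transcript was kept if at least 1 of the 20 libraries listed it. Of the 5, 4 were kept, among 15354 transcripts listed in any library. Asns, which encodes asparagine synthetase, was listed in 0 of 20 libraries under that identifier, and other Asns transcripts were not analysed here.

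Footprints were measured in mouse embryonic fibroblasts of strain C57BL/6J, grown in DMEM with serum. The cells were Ogt knockout cells, made with 0.5 µM 4-OHT for 24 h and then fresh medium for 24 h, cells given 0.1 µM Thiamet-G for 16 h, or control cells, and each background was either starved of amino acids for 2 h, in DMEM with DFBS, or fed. Ogt encodes the enzyme that adds the sugar O-GlcNAc to proteins inside the cell, and Thiamet-G inhibits the enzyme that removes it. The labels do not say that control cells received 4-OHT, so the loss of Ogt and the exposure to 4-OHT cannot be told apart, and they name neither the Cre driver nor separate cultures for the replicates. Ribo-seq, which sequences the RNA stretches that ribosomes shield from nuclease, comprised 12 libraries, 2 for each of the 6 groups. eIF3-80S-seq, which sequences footprints of 80S ribosomes bound by the initiation factor eIF3, comprised 8 libraries, with 2 starved and 2 fed libraries of control cells and 1 library for each of the other 4 groups. The title of the series places the question in the integrated stress response and in O-GlcNAc on the subunit eIF3a.

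In the integrated stress response, phosphorylation of the initiation factor eIF2α lowers translation of most mRNAs while translation of the Atf4 mRNA rises, because ribosomes that have passed its upstream reading frames reinitiate at the ATF4 coding sequence. ATF4 then activates genes of amino acid supply and stress handling. Lack of amino acids starts this chain through the kinase GCN2, which senses uncharged tRNA.

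The measured products have different roles. Ddit3 encodes CHOP, a transcription factor of prolonged stress that carries an inhibitory upstream reading frame in its own mRNA. Trib3 encodes a pseudokinase that binds ATF4 and CHOP and restrains their activity. Chac1 encodes a γ-glutamyl cyclotransferase that breaks down glutathione, and Sesn2 encodes Sestrin 2, a leucine-binding inhibitor of mTORC1. On the build GRCm38.p6, RefSeq places Ddit3 at chr10:127290793-127296291, Trib3 at chr2:152337425-152344060, Chac1 at chr2:119351242-119354326 and Sesn2 at chr4:132492804-132510456. The gene span of Ddit3 overlaps 2 other protein-coding genes, Mbd6 and Mars1. Whether the counting used strand is not given in the sources used here, so reads in such an overlap could not be told apart. The coding lengths recovered from the values were 507 nt for Ddit3, 1065 nt for Trib3, 672 nt for Chac1 and 1443 nt for Sesn2.

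ATF4 binds DNA with C/EBP partners at the C/EBP-ATF response element, searched here as TGATGNAA on both strands. The RefSeq promoter windows of GRCm38.p6 were 300 bases long and ended shortly past the start of each gene. They held this motif for Asns, Trib3 and Chac1 and not for Ddit3 and Sesn2. Sequence further upstream was not searched, so an element there would have been missed. The motif was present in 3.97% of 32851 promoter windows. The endoplasmic reticulum stress element, searched on both strands, was in 0 of the 5 windows and in 0.119% of all windows. The windows of the 2 listed transcripts with the motif are printed first and that of Ddit3, the transcript with the largest starvation difference in Ribo-seq, after them. Capitals mark the motif, which reads TTACATCA in Trib3 and TTGCATCA in Chac1 because both lie on the strand opposite to the gene.
Trib3 (chr2:152344011-152344310, minus strand): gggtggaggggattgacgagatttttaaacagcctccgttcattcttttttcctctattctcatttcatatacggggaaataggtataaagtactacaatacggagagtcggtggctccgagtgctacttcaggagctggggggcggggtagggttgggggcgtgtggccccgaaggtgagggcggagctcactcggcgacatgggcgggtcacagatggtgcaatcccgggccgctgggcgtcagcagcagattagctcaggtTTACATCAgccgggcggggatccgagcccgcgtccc
Chac1 (chr2:119350992-119351291, plus strand): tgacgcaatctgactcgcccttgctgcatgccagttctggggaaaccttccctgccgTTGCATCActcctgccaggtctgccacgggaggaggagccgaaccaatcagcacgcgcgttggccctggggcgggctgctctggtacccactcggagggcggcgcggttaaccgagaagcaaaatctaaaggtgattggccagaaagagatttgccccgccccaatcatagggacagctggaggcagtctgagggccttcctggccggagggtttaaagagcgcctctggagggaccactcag
Ddit3 (chr10:127290543-127290842, plus strand): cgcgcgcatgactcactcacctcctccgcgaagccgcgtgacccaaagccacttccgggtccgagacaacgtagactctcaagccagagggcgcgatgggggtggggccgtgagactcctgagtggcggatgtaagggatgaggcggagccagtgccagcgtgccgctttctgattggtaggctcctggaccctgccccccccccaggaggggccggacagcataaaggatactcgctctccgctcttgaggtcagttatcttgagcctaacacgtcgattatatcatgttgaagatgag
The motif began 14 bases past the start of Trib3, 193 bases before the start of Chac1 and 23 bases before the start of Asns. A match in a window is a description of the letters and not a measured binding site.

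Values are RPKM, reads scaled to transcript length and to library size, as deposited. The Ribo-seq libraries held 844403 to 5846130 reads on transcripts and the eIF3-80S libraries 52148 to 359282, so the eIF3-80S values rest on far fewer reads. The Ribo-seq files were of 2 kinds, with 1 library of each kind in every group. In 6 of them transcripts were listed from 1 read upwards (termed 1-read files), and in the other 6 from 5 reads upwards (5-read files, where at most 0.085% of transcripts had fewer reads), as in all 8 eIF3-80S files. This split follows the replicate number in the file names. The fed knockout 1-read library stood apart from the other fed libraries in Ddit3, and results that rest on it are given with and without it. Trib3, Chac1 and Ddit3 ranked at the 86.1st, 93.8th and 85.1st percentile of mean Ribo-seq level among 10936 tested transcripts, and Sesn2 at the 56.6th. Ratios in the text are of RPKM rescaled between libraries by their median ratio. Their 95% intervals and those of single values cover counting error only.

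In the 5-read files the Ribo-seq level of all 4 transcripts was higher in starved than in fed cells of all 3 backgrounds. In the 1-read files Ddit3, Trib3 and Chac1 were higher in starved Thiamet-G and control cells and lower in starved knockout cells. Sesn2 was lower in the starved library of every background in the 1-read files, within counting error. The average over all 12 libraries was positive for all 4, and 0 of 4 passed the test across all transcripts. Ddit3 had the largest averaged difference of the 4. Total mRNA was not analysed here, so more mRNA and more ribosomes per mRNA cannot be told apart, nor can more of the cells and more footprints per cell.

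**Figure D1:**
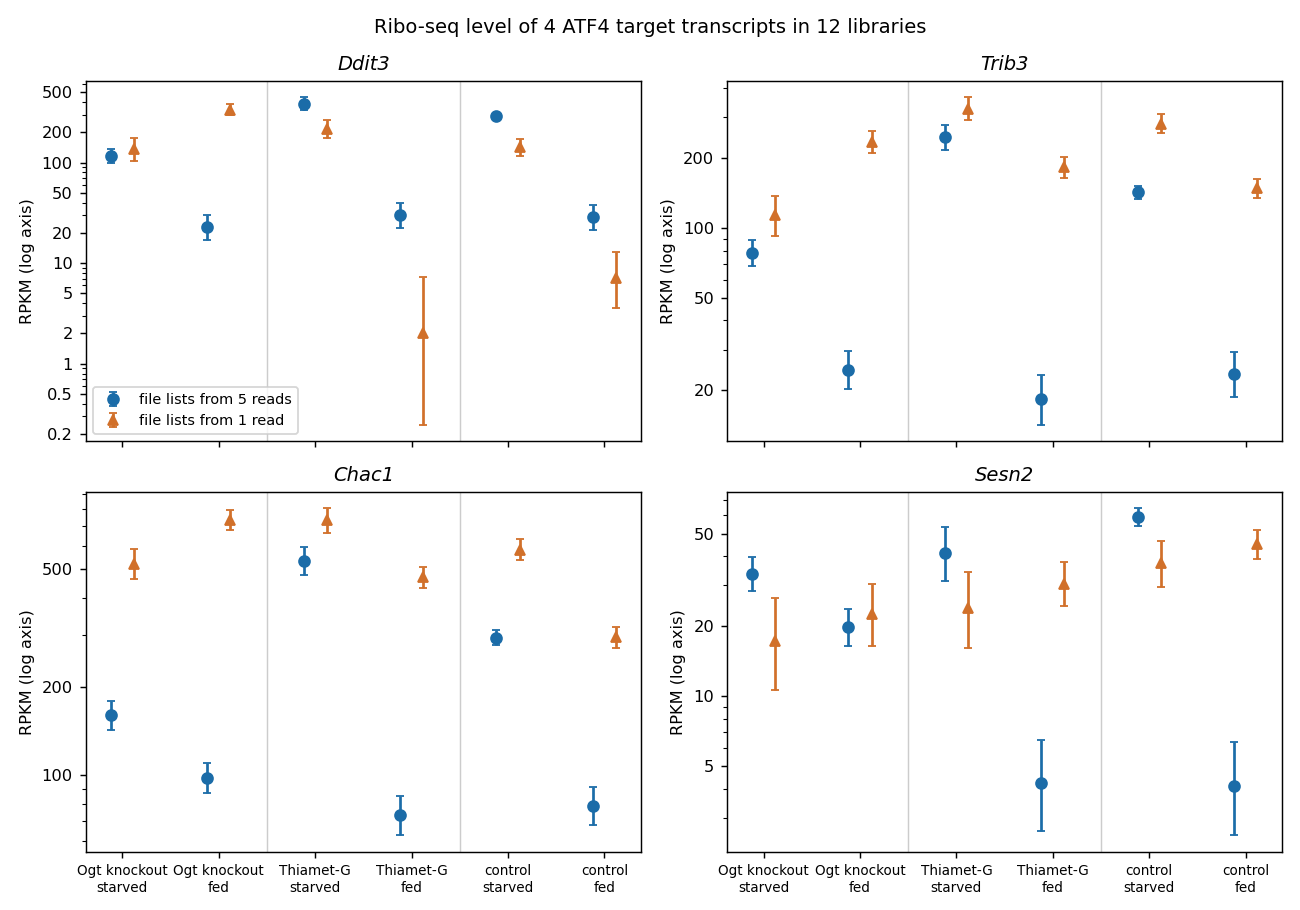
Ribo-seq RPKM on a log axis of Ddit3, Trib3, Chac1 and Sesn2 in the starved and fed libraries of Ogt knockout, Thiamet-G and control cells. Each point is 1 library, circles are 5-read files, triangles are 1-read files, and bars are 95% Poisson counting intervals. The fed knockout 1-read library reached 336 RPKM for Ddit3, against 2.04 to 29.9 RPKM in the other fed libraries.

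Ddit3 had 117 RPKM in the starved knockout 5-read file and 135 RPKM in the 1-read file, against 22.8 and 336 RPKM in the fed knockout files of the same kinds. In Thiamet-G cells it had 385 and 216 RPKM when starved, against 29.9 and 2.04 RPKM when fed. Control cells had 293 and 143 RPKM when starved, against 28.8 and 7.16 RPKM when fed. All 6 starved libraries lay above 5 of the 6 fed libraries, and the fed knockout 1-read library lay above 5 of the 6 starved ones. The lowest value rested on 2 reads.

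In the 5-read files the starved level of Ddit3 was 5.00-fold the fed level in knockout cells, 10.8-fold in Thiamet-G cells and 9.07-fold in control cells. In the 1-read files the ratio was 0.409 in knockout cells, 105-fold in Thiamet-G cells with an interval of 28.4 to 883, and 19.1-fold in control cells. Both kinds of file thus gave a higher starved level in Thiamet-G and control cells, and opposite directions in knockout cells.

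Trib3 had 78.0 RPKM in the starved knockout 5-read file and 113 RPKM in the 1-read file, against 24.5 and 235 RPKM in the fed ones. In Thiamet-G cells the values were 246 and 326 RPKM when starved, against 18.3 and 183 RPKM when fed. In control cells they were 142 and 282 RPKM when starved, against 23.5 and 148 RPKM when fed. The 3 fed 1-read files held 148 to 235 RPKM, above all 3 fed 5-read files, and starved and fed groups overlapped. The starved level was 3.11-fold the fed level in knockout cells, 11.2-fold in Thiamet-G cells and 5.40-fold in control cells in the 5-read files. In the 1-read files the ratio was 0.490 in knockout cells, 1.78 in Thiamet-G cells and 1.82 in control cells.

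Chac1 had 160 and 522 RPKM in the starved knockout 5-read and 1-read files, against 98.0 and 733 RPKM in the fed ones. In Thiamet-G cells it had 534 and 733 RPKM when starved, against 73.3 and 469 RPKM when fed. In control cells it had 293 and 581 RPKM when starved, against 79.0 and 294 RPKM when fed. Every 1-read library exceeded the 5-read library of its own group, by 3.45-fold to 7.98-fold among fed libraries. The starved level was 1.59-fold the fed level in knockout cells, 6.10-fold in Thiamet-G cells and 3.31-fold in control cells in the 5-read files. In the 1-read files the ratio was 0.722 in knockout cells, 1.56 in Thiamet-G cells and 1.89 in control cells.

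Sesn2, the lowest of the 4, had 33.7 and 17.2 RPKM in the starved knockout 5-read and 1-read files, against 19.9 and 22.6 RPKM in the fed ones. In Thiamet-G cells it had 41.2 and 23.9 RPKM when starved, against 4.24 and 30.5 RPKM when fed. Control cells had 59.0 and 37.3 RPKM when starved, against 4.14 and 45.0 RPKM when fed. The ratio was above 1 in the 5-read files and below 1 in the 1-read files of all 3 backgrounds. The starved level was 1.65-fold the fed level in knockout cells, 8.14-fold in Thiamet-G cells and 12.7-fold in control cells in the 5-read files. In the 1-read files the ratio was 0.774 in knockout cells, 0.783 in Thiamet-G cells and 0.793 in control cells, and the counting intervals of all 3 spanned 1 (0.437 to 1.33, 0.498 to 1.20 and 0.604 to 1.03).

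**Figure D2:**
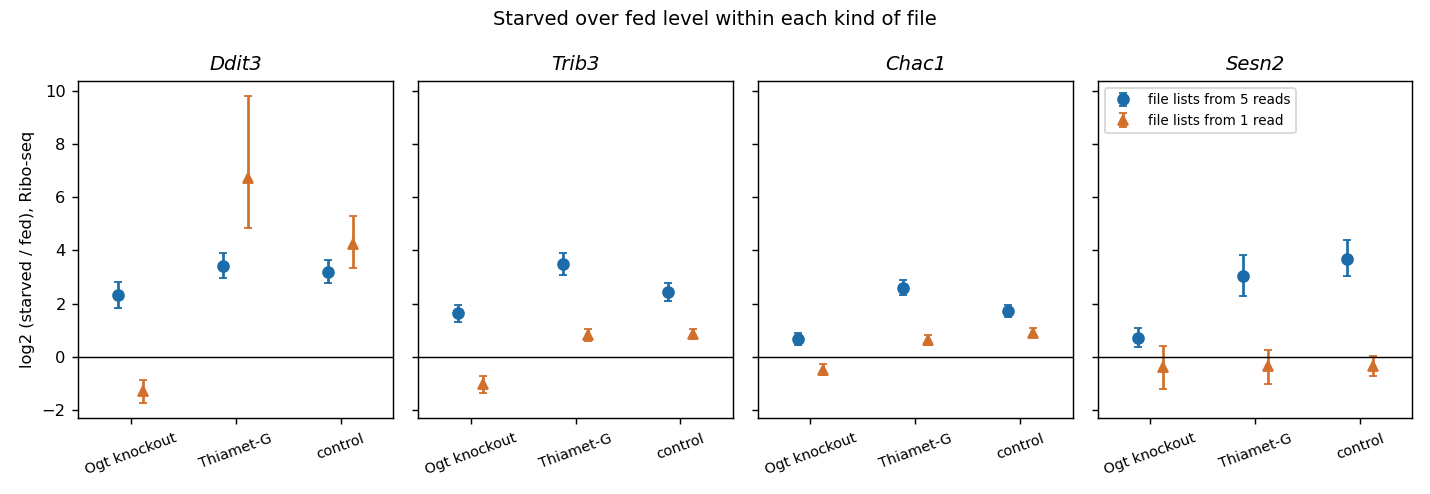
Log2 ratio of starved over fed Ribo-seq level for each transcript, by background, with circles for 5-read files, triangles for 1-read files and 95% counting intervals as bars. All 12 circles lie above 0. Triangles lie below 0 for all 4 transcripts in knockout cells and for Sesn2 in Thiamet-G and control cells.

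Averaged over the 3 backgrounds in 1 limma fit of all 12 libraries, the log2 fold change on the log2(RPKM + 1) scale was 2.96 ± 0.71 (SE) for Ddit3 with an adjusted p of 0.167, at the 99.98th percentile of tested transcripts. It was 1.34 ± 0.68 for Trib3 (adjusted p = 0.596), 1.01 ± 0.62 for Chac1 (adjusted p = 0.654) and 0.97 ± 0.59 for Sesn2 (adjusted p = 0.652). The median of the 4 was 1.18, beside −0.01 over all tested transcripts. The background was 0.174% of transcripts called in either direction, with 0% called higher. Limma gave 1 of the 4 at an unadjusted p under 0.05, against 984 of all 10936 transcripts, and limma-voom on the recovered reads called 0 of the 4 with 3 at an unadjusted p under 0.05, against 962 of 9914 transcripts. Leaving out 1 library at a time moved the averaged value of Ddit3 over 2.31 to 3.61, with both ends set by a fed knockout library. The averaged value moved over 0.80 to 1.89 for Trib3, 0.52 to 1.51 for Chac1 and 0.46 to 1.48 for Sesn2. For 0 of the 4 did all 6 starved libraries lie above all 6 fed libraries, as they did for 0.21% of all transcripts.

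The replicate number of the file names, which coincides with the kind of file, was also used as a block. With it 1 of the 4, Ddit3, was called higher by limma (adjusted p = 0.0438), where 0.192% of all transcripts were called higher. With the same block in limma-voom, Ddit3 was again the only 1 of the 4 called (log2 fold change 3.20, adjusted p = 0.00251), where 1.39% of transcripts were called higher. Without the fed knockout 1-read library the averaged log2 fold change of Ddit3 was 3.61 with a limma adjusted p of 0.0439, and 0.0367% of transcripts were called higher. Without it Trib3 was at 1.89 (adjusted p = 0.516 by limma), Chac1 at 1.51 (adjusted p = 0.639) and Sesn2 at 1.02 (adjusted p = 0.877). Averaged over Thiamet-G and control cells alone, a choice made after the data were seen, Ddit3 was at 4.19 with a limma adjusted p of 0.0877. The call for Ddit3 thus changed with the block, and its direction did not.

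Within the 6 5-read files alone, a choice made after the data were seen, limma called all 4 transcripts higher, where 2.4% of all transcripts were called higher. The log2 fold changes were 2.89 for Ddit3 (adjusted p = 0.00111), 2.43 for Trib3 (adjusted p = 0.00496), 2.26 for Sesn2 (adjusted p = 0.0161) and 1.61 for Chac1 (adjusted p = 0.0365). All 3 starved 5-read libraries lay above all 3 fed ones for 4 of 4 transcripts and for 11.3% of all transcripts. Within the 6 1-read files limma called 0 of the 4 and 0% of transcripts higher. There the log2 fold change was 2.97 for Ddit3 (adjusted p = 0.711), 0.21 for Trib3, 0.35 for Chac1 and −0.35 for Sesn2 (adjusted p = 0.916). In the 1-read files the starved libraries of 0 of the 4 stood clear of the fed ones, against 5.22% of all transcripts.

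Among fed libraries, Trib3 was 5.84-fold to 10.2-fold higher in the fed 1-read file than in the 5-read file of the same group, and Sesn2 was 1.21-fold to 10.1-fold higher. All 3 fed 1-read libraries lay above all 3 fed 5-read libraries for Trib3, Chac1 and Sesn2, as for 11.1% of all transcripts. Ddit3 behaved otherwise, with 0.0695 and 0.230 times the 5-read level in fed Thiamet-G and control cells and 15.7 times that level in fed knockout cells. Among starved libraries the ratio of 1-read to 5-read file was 0.485 to 3.62 over the 4 transcripts, and for Sesn2 in knockout cells the starved libraries differed more (0.568) than the fed ones (1.21). The 1-read files held 844403 to 3030545 reads and the 5-read files 958140 to 5846130, and the part of depth in these differences was not tested.

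**Figure D3:**
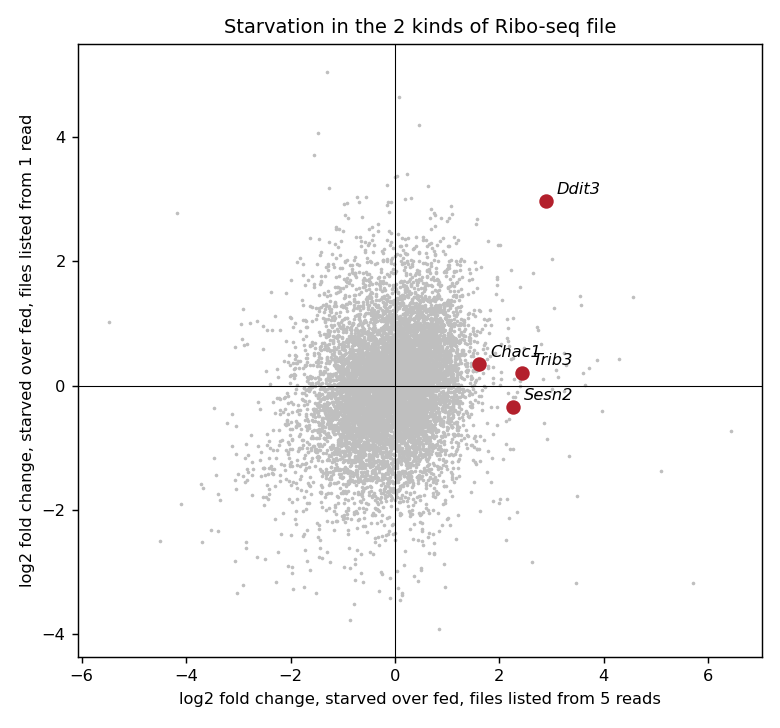
Log2 fold change of starved over fed cells in the 5-read files (horizontal) and in the 1-read files (vertical), both on the log2(RPKM + 1) scale with background as an additive term. Grey points are all transcripts fitted in both and red points are the 4 ATF4 targets. Ddit3 lies at 2.89 and 2.97, and Sesn2 at 2.26 and −0.35.

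Taken background by background, the averaged change over both kinds of file was smallest in knockout cells for each transcript. The log2 fold change on starvation of Ddit3 was 0.49 ± 1.22 (SE) in knockout cells, 4.78 ± 1.22 in Thiamet-G cells and 3.61 ± 1.22 in control cells. For Trib3 it was 0.28, 2.13 and 1.62 in the same order of backgrounds, for Chac1 0.10, 1.62 and 1.32, and for Sesn2 0.17, 1.21 and 1.54. Without the fed knockout 1-read library the knockout value was 2.44 for Ddit3, 1.93 for Trib3 and 1.58 for Chac1. Leaving out 1 library at a time moved the Thiamet-G value over 0.49 to 3.78 for Trib3 and 0.27 to 2.97 for Chac1. The control value moved over 0.38 to 2.87 for Trib3, 0.44 to 2.20 for Chac1 and 0.0071 to 3.07 for Sesn2, with both ends set by a fed control library. Limma called 0 of the 4 in each background, and the background was 0% of all transcripts in each. Adjusted p-values were 1 for all 4 in knockout cells, 0.733 to 0.882 in Thiamet-G cells and 0.643 to 0.855 in control cells. At an unadjusted p under 0.05 limma had 0 of the 4 in knockout cells, 1 in Thiamet-G cells and 1 in control cells, where 0.905%, 5.97% and 6.80% of all transcripts in the same order did so. Limma-voom had 0, 2 and 1 of the 4, beside 0.625%, 2.84% and 10.5% of all transcripts, and called none of the 4.

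The difference between backgrounds in the response to starvation was tested as an interaction. Against control cells, the knockout interaction was −3.12 ± 1.73 (SE) on the log2 scale for Ddit3, −1.34 for Trib3, −1.22 for Chac1 and −1.37 for Sesn2. The Thiamet-G interaction was 1.17 ± 1.73 for Ddit3, 0.50 for Trib3, 0.30 for Chac1 and −0.33 for Sesn2. All 8 had an adjusted p of 1 in limma, with 0 of 4 at an unadjusted p under 0.05 in either, and limma-voom called 0 as well with 0 of 4 unadjusted. The background was 0% of all transcripts called in both interactions. Without the fed knockout 1-read library the knockout interaction of Ddit3 was −1.17, and the values for Trib3 and Chac1 were 0.30 and 0.27. The negative sign of the knockout interaction for those 2 transcripts therefore rested on that library. For Sesn2 the interaction was 0.17 without the fed control 5-read library.

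In starved cells the knockout lay below control in both kinds of file for all 4 transcripts. The counting intervals of the ratio stayed below 1 in both kinds of file for Trib3 and Sesn2 only. Trib3 had 78.0 and 113 RPKM in the 2 starved knockout libraries, against 142 and 282 RPKM in the starved control libraries, which gave ratios of 0.503 in the 5-read files and 0.411 in the 1-read files. Sesn2 had 33.7 and 17.2 RPKM in starved knockout cells, against 59.0 and 37.3 RPKM in starved control cells, with ratios of 0.523 and 0.473. For these transcripts, and for Ddit3, both starved knockout libraries lay below both starved control libraries, 3 of the 4, as they did for 11.5% of all transcripts. For Chac1 the ratio was 0.501 in the 5-read files and 0.918 in the 1-read files, and for Ddit3 it was 0.365 and 0.970.

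The limma log2 difference of starved knockout and starved control cells was −1.13 ± 1.18 (SE) for Trib3, −0.97 ± 1.02 for Sesn2, −0.74 for Ddit3 and −0.56 for Chac1. The median of the 4 was −0.86, beside −0.01 over all tested transcripts. All 4 had an adjusted p of 1, 0 of 4 had an unadjusted p under 0.05 in limma or limma-voom, and 0% of all transcripts were called. Each of the 4 differences was smaller than its SE.

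In fed cells Trib3 had 24.5 and 235 RPKM in the knockout, against 23.5 and 148 RPKM in control cells. The largest contrast was Ddit3 in the 1-read files, where the knockout level was 45.3-fold the control level with an interval of 24.8 to 92.0, while in the 5-read files the ratio was 0.663. Chac1 in the same fed knockout 1-read library was 2.41-fold the control level, and Sesn2 was 0.484-fold. In the 5-read files Sesn2 was 4.03-fold higher in fed knockout than in fed control cells. The limma log2 difference was 2.37 ± 1.22 (SE) for Ddit3, 0.66 for Chac1, 0.39 for Sesn2 and 0.21 for Trib3, all with an adjusted p of 1. Without the fed knockout 1-read library it was 0.41 for Ddit3, −0.83 for Chac1 and −1.44 for Trib3. None of the 4 was called in limma or limma-voom, 0 had an unadjusted p under 0.05 in either, and 0% of all transcripts were called.

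When starved, Thiamet-G cells had 385 and 216 RPKM of Ddit3, against 293 and 143 RPKM in control cells, and the ratio of the 2 was 1.16 in the 5-read files and 1.63 in the 1-read files. The same ratio was 1.53 and 1.25 for Trib3, 1.62 and 1.36 for Chac1 and 0.619 and 0.692 for Sesn2. Ddit3, Trib3 and Chac1 were thus above control and Sesn2 below it in both kinds of file. The limma log2 difference was 0.46 ± 1.22 (SE) for Ddit3, 0.46 for Trib3, 0.57 for Chac1 and −0.60 for Sesn2. In fed cells it was −0.71 for Ddit3, −0.04 for Trib3, 0.27 for Chac1 and −0.27 for Sesn2. All of these had an adjusted p of 1 in limma, 0 of 4 had an unadjusted p under 0.05 in either state by limma or limma-voom, and 0% of all transcripts were called in both states.

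**Figure D4:**
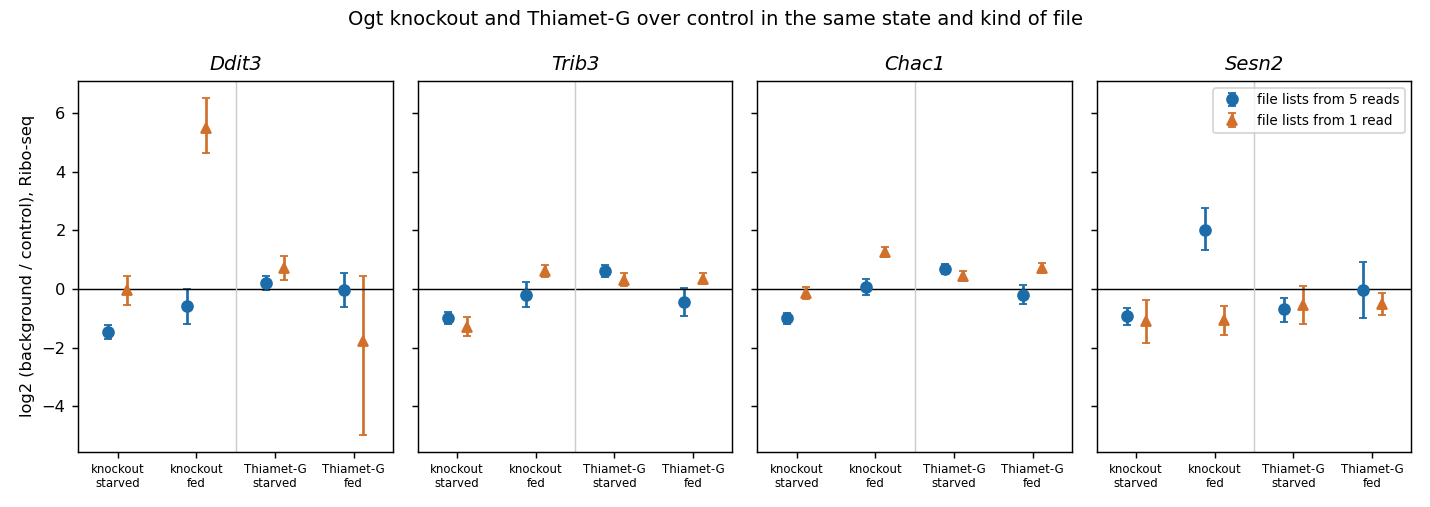
Log2 ratio of knockout or Thiamet-G over control Ribo-seq level in the same state and kind of file, with circles for 5-read files, triangles for 1-read files and 95% counting intervals as bars. Both starved knockout points lie below 0 for all 4 transcripts. The fed knockout 1-read point of Ddit3 lies at 5.50.

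Ordered by mean log2 level over both kinds of file, starved Thiamet-G cells came first, starved control cells next and starved knockout cells after them for Ddit3, Trib3 and Chac1. For Sesn2 starved control cells came first. Neighbours in this order overlapped in their libraries except starved knockout and starved control cells for Ddit3 and Trib3, and starved Thiamet-G and starved control cells for Sesn2. The Ddit3 gap was narrow, with rescaled values of 132 in the starved knockout and 136 in the starved control 1-read file. Their ratio of 0.970 had a counting interval of 0.693 to 1.35. The Sesn2 gap was narrow and present only after rescaling. Its highest value was 35.0 in starved Thiamet-G cells and its lowest 35.6 in starved control cells. Both starved libraries lay below both starved control libraries for 11.5% of all transcripts in knockout cells and for 12.2% in Thiamet-G cells.

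In eIF3-80S-seq the starved level was higher than the fed level for Ddit3 and Trib3 in every library compared, and these are the transcripts of CHOP and of the pseudokinase that restrains it. Trib3 and Chac1 were listed in all 8 libraries, with 9 to 78 reads for Trib3 and 5 to 30 for Chac1. Ddit3 was listed in 7 with 5 to 27 reads, and Sesn2 in 6 with 7 to 28.

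Trib3 had 319 RPKM in the starved knockout library, against 103 RPKM in the fed one, and 213 RPKM in the starved Thiamet-G library, against 52.3 RPKM in the fed one. Starved control libraries had 252 and 232 RPKM, against 56.8 and 84.6 RPKM in fed control libraries. The 4 starved libraries lay between 213 and 319 RPKM, all above the 4 fed libraries. The starved level was 2.69-fold the fed level in knockout cells with an interval of 1.58 to 4.85, and 4.90-fold in Thiamet-G cells with an interval of 2.71 to 9.08. In control cells it averaged 242 ± 13.9 RPKM when starved and 70.7 ± 19.7 RPKM when fed (SD, n = 2 each).

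Ddit3 had 223 RPKM in the starved knockout library and was not listed in the fed one, where 4 reads would be worth 51.0 RPKM. The rescaled ratio to that limit was 3.81, without counting error, and the starved value had an interval of 146 to 327 RPKM. It had 216 RPKM in the starved Thiamet-G library, against 87.8 RPKM in the fed one. In control cells it had 189 and 412 RPKM when starved, against 66.2 and 79.0 RPKM when fed. All 4 starved libraries lay above all fed ones, the unlisted one included. The starved control value of 189 RPKM rested on 5 reads, and its interval of 61.4 to 441 RPKM covered every listed fed value. The Thiamet-G ratio was 2.97 with an interval of 1.37 to 6.41.

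Chac1 had 194 RPKM in the starved knockout library, against 164 RPKM in the fed one, and 163 RPKM in the starved Thiamet-G library, against 87.0 RPKM in the fed one. In control cells it had 228 and 150 RPKM when starved, against 140 and 37.2 RPKM when fed. The groups overlapped, through the fed knockout library as deposited and through the fed control replicate 1 as well after rescaling. The ratio was 1.04 in knockout cells with an interval of 0.553 to 2.00 and 2.26 in Thiamet-G cells with an interval of 1.08 to 4.60.

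Sesn2 had 84.5 RPKM in the starved knockout library, against 53.8 RPKM in the fed one, and 50.6 RPKM in the starved Thiamet-G library, against 21.2 RPKM in the fed one. In control cells replicate 1 was unlisted in both states, with a limit of 53.2 RPKM when starved and 18.6 RPKM when fed, and replicate 2 had 69.7 RPKM when starved, against 24.3 RPKM when fed. Starved and fed libraries overlapped.

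**Figure D5:**
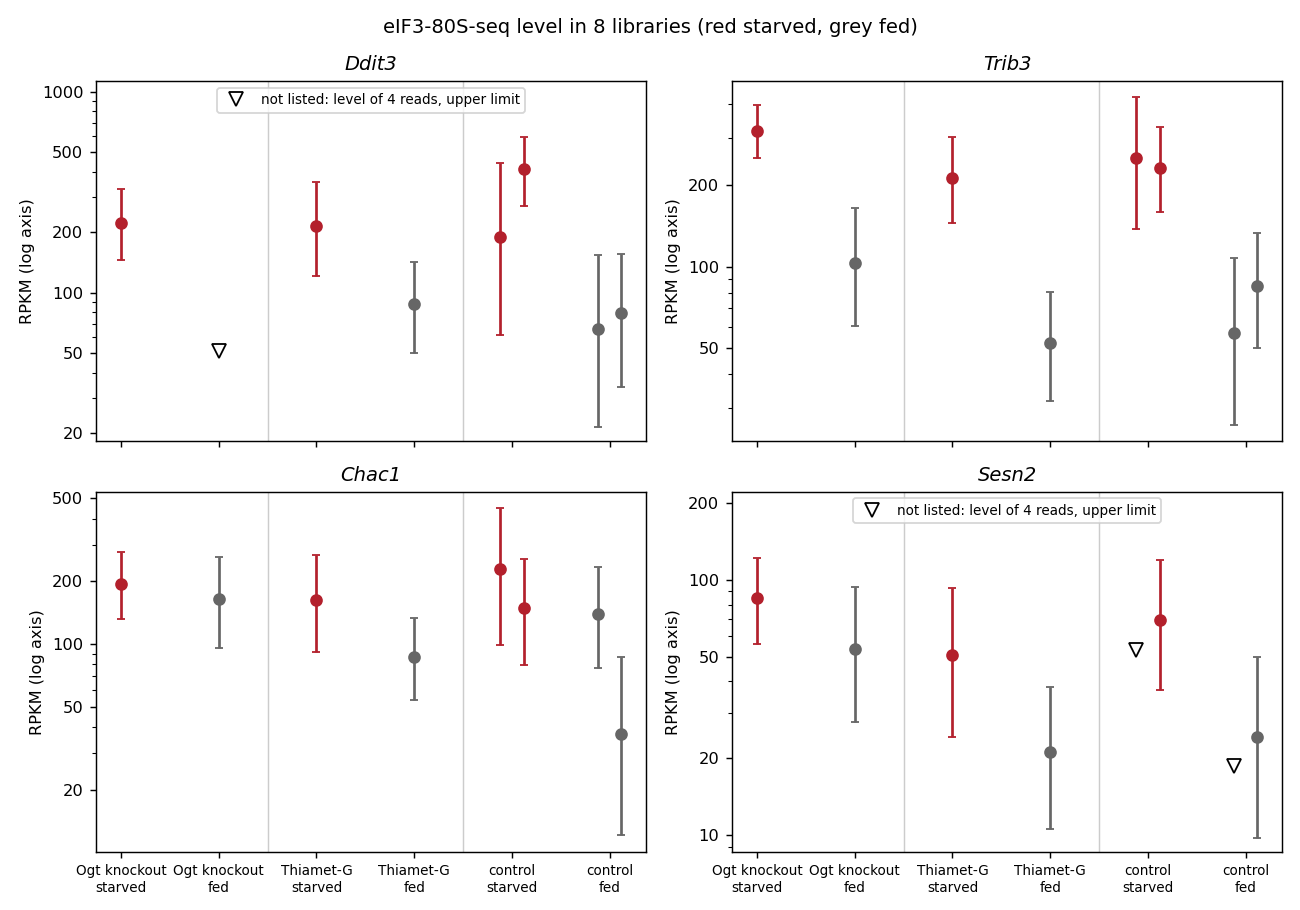
RPKM on a log axis of the 4 transcripts in the 8 eIF3-80S libraries, starved in red and fed in grey, with 95% Poisson counting intervals as bars. Open triangles mark libraries that did not list the transcript, drawn at the level of 4 reads as an upper limit. The 4 starved libraries of Trib3 sit between 213 and 319 RPKM, above all 4 fed libraries.

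In the limma fit of the 8 libraries with background as an additive term, the log2 fold change on starvation was 1.72 ± 0.34 (SE) for Trib3 with an adjusted p of 0.150. It was 3.17 ± 1.09 for Ddit3 (adjusted p = 0.512) with the unlisted library taken as 0, 0.88 ± 0.58 for Chac1 (adjusted p = 0.676), and 0.82 ± 1.66 for Sesn2 (adjusted p = 0.846) with 2 libraries taken as 0. Limma called 0 of the 4, and called 0.284% of all transcripts in either direction and 0% higher. At an unadjusted p under 0.05 it had 2 of the 4, beside 8.38% of all transcripts. The median of the 4 was 1.30, beside −0.75 over all tested transcripts, many of which were unlisted in some libraries. For 2 of the 4, Ddit3 and Trib3, the starved libraries lay above all fed ones, as they did for 2.44% of all transcripts.

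The calls for both transcripts differed between fits. With limma-voom on the recovered reads, 1 of the 4, Trib3, was called higher (log2 fold change 1.80, adjusted p = 0.00265), where 2.69% of transcripts were called higher, and Ddit3 had an adjusted p of 0.068 in that limma-voom fit. With unlisted transcripts set to the level of 4 reads, a choice made after the data were seen, limma called Trib3 (log2 fold change 1.72, adjusted p = 0.00197) and Ddit3 (1.74, adjusted p = 0.00206) higher, 2 of the 4, where 0.924% of transcripts were called higher. In control cells alone the limma log2 fold change was 1.59 for Trib3 (adjusted p = 0.182) and 1.74 for Ddit3 (adjusted p = 0.553).

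The 2 assays were set against each other in control cells, where both have 2 libraries per state. Fragments of 20 to 70 nt were selected for eIF3-80S-seq and of 25 to 35 nt for Ribo-seq, so the ratio compares relative levels in libraries of different make. The listed values of Ddit3 in fed cells were 66.2 and 79.0 RPKM in eIF3-80S-seq, against 28.8 and 7.16 RPKM in Ribo-seq. The eIF3-80S values rested on 5 and 8 reads. Since those files list from 5 reads, replicate 1 could not have listed a lower value. Their counting intervals of 21.5 to 155 and 34.1 to 156 RPKM overlapped that of Ribo-seq replicate 1, 21.3 to 38.1 RPKM. The starved levels of Ddit3, 189 and 412 RPKM in eIF3-80S-seq, overlapped the 293 and 143 RPKM of Ribo-seq. Trib3 averaged 242 RPKM in starved eIF3-80S libraries, against 212 RPKM in starved Ribo-seq libraries, and 70.7 RPKM in fed eIF3-80S libraries, against 85.8 RPKM in fed Ribo-seq libraries. Chac1 was lower in eIF3-80S-seq, with means of 189 RPKM when starved and 88.6 RPKM when fed, against 437 and 187 RPKM in Ribo-seq.

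In limma the log2 difference of eIF3-80S-seq and Ribo-seq in fed control cells was 1.99 ± 1.34 (SE) for Ddit3 (adjusted p = 0.305), −0.03 for Trib3 (adjusted p = 0.999), −1.32 for Chac1 (adjusted p = 0.473) and −1.92 for Sesn2 (adjusted p = 0.488). In starved control cells it was 0.39 for Ddit3 (adjusted p = 0.835), 0.21 for Trib3 (adjusted p = 0.909), −1.21 for Chac1 (adjusted p = 0.446) and −2.52 for Sesn2 (adjusted p = 0.299). The Sesn2 values rest on replicate 1 taken as 0 in both states and turn positive with that library at 4 reads. Limma called 0 of the 4 in either state, where 24.4% of all transcripts were called in fed cells and 30.4% in starved cells. Of those calls, 45 were higher and 2532 lower in eIF3-80S-seq in fed cells, and 39 were higher and 3167 lower in starved cells. With unlisted transcripts at 4 reads the split was 3198 higher and 501 lower in fed cells and 4547 higher and 92 lower in starved cells. At an unadjusted p under 0.05 limma had 0 of the 4 in both states, and limma-voom called 0 with 0 unadjusted.

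The median log2 difference over all tested transcripts was −1.72 in fed cells and −2.44 in starved cells, since most transcripts were unlisted in some eIF3-80S library. Ddit3 stood at the 98.5th percentile in fed cells and the 93.5th in starved cells, and Trib3 at the 81.2nd and 91.9th. With unlisted transcripts at 4 reads these became the 70.8th and 29.3rd percentile for Ddit3 and the 33.6th and 25.3rd for Trib3, so the rank of either transcript moved with the value given to unlisted ones. The change of the assay difference with starvation was −1.61 ± 1.89 (SE) for Ddit3 (adjusted p = 0.895), 0.24 for Trib3, 0.11 for Chac1 and −0.59 for Sesn2. Limma called 0 of the 4, with 0 at an unadjusted p under 0.05 and the same by limma-voom, where 0.882% of all transcripts were called.

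Among the 4 transcripts, Trib3 and Chac1 followed the mean standardized Ribo-seq profile of the 4 most closely over the 12 libraries, with Pearson r of 0.947 and 0.911, while Sesn2 had 0.784 and Ddit3 0.592. Each transcript contributes to that mean, and the libraries share depth and kind of file. Among 8369 other transcripts listed in all 12 libraries, the 2 most like this profile were ENSMUST00000043098 (r = 0.954, coding length 498 nt) and ENSMUST00000064795 (r = 0.932, coding length 1602 nt), which no table used here pairs with a gene name. The first had 617 to 1473 RPKM over starved libraries, against 47.3 to 1306 RPKM over fed libraries. The second had 455 to 1179 RPKM over starved libraries, against 37.8 to 980 RPKM over fed libraries. Both overlapped between the states, as the 4 ATF4 targets did.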

How the data were processed

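The analysis used 12 Ribo-seq and 8 eIF3-80S-seq libraries. The authors deposited RPKM values above 0 by transcript identifier. Reads were handled with cutadapt and STAR on GRCm38, per the submitters' processing notes, and no counter or annotation is given in the sources used here. An unlisted transcript has no value in a file, and in files listed from 5 reads it can hold up to 4.

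Groups came from the titles. Whole reads were recovered from the steps of the RPKM values for 13278 of 15354 transcripts (ratios to whole numbers within a relative tolerance of 2e-12). RPKM was rescaled by the median ratio between libraries (factors 0.93 to 1.18 in Ribo-seq and 0.835 to 1.14 in eIF3-80S-seq), unlisted transcripts were taken as 0, and each transcript averaging 1 RPKM or more entered a test by limma 3.58.1 (R 4.3.3), by lmFit and eBayes with a trend, two-sided, on log2(RPKM + 1), which understates changes of low transcripts. P-values were adjusted by Benjamini-Hochberg over all transcripts tested, with a threshold of 0.05. A fit of 6 groups gave the Ribo-seq contrasts and a fit of 12 groups the assay contrasts. Whether replicates were separate cultures is not stated, and the p-values reflect only how far these samples vary, which may be technical. The steps were tested on simulated data.

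Deviations from group means correlated at 0.188 to 0.453 between libraries of the same file-name number, in 15 of 15 pairs of groups. Title numbers, which are the opposite of the file-name numbers for starved Thiamet-G cells alone, gave −0.394 to 0.453, with 10 of 15 pairs over 0.1. The file-name numbers were therefore used as the block. They coincide with the kind of file, so a pairing of libraries and an effect of the kind of file cannot be told apart. Unlisted transcripts enter as 0, which can add to these correlations. Among transcripts listed in all 12 libraries 14 of 15 pairs were over 0.1, the lowest at 0.0803.

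Alternatives were another pseudocount (0.1), no filter, quantile scaling, RPKM as deposited, limma-voom on reads with a mean of at least 10 reads, replicate blocks and each library left out. The rule for named genes was the 5 transcripts, plus the 2 most like their mean profile. The members, lists and tests were chosen with earlier results of these data known. Of the identifiers, 0 paired with a symbol in the reference table, so the wider ATF4 pathway list, fibroblast and other cell type markers, and the check of Ogt in the knockout were not analysed here, and the 5 names come from the identifiers chosen.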

Additional observations from a re-analysis of the deposited data

Results flagged for a closer look

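Ddit3 reached 336 RPKM in the fed Ogt knockout replicate 2 of Ribo-seq, a 1-read file, while the other 5 fed libraries held 2.04 to 29.9 RPKM, so this library stood apart from the rest of the fed group. In eIF3-80S-seq, the starved control replicate 2 had 412 RPKM of Ddit3, where the other 3 starved libraries had 189 to 223 RPKM, on 5 to 27 reads over the 4. Of 13 groups of libraries examined for such a value, 2 had one. The rule was applied to RPKM without a log, over all backgrounds together. Its chance rate of about 1 in 20 assumes normally distributed values from a single population, which was not tested. Values on the log scale were not examined by this rule.

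The starved-over-fed ratio of Sesn2 lay on opposite sides of 1 in the 2 kinds of Ribo-seq file. The mean log2 ratio of starved over fed was 2.47 over the 3 pairs of 5-read files and −0.35 over the 3 pairs of 1-read files, a difference of 2.83. Every pair of one kind was above 0 and every pair of the other below it, where all 3 counting intervals spanned no change (ratios of 0.437 to 1.33, 0.498 to 1.20 and 0.604 to 1.03). The difference was not tested.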

How the results depend on the processing

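Of 1188 fold changes of the 4 transcripts recomputed under the alternatives, 1111 kept their direction and side of the threshold, 11 passed the threshold only in the alternative, and 66 turned their sign, none of them passing the threshold. Of the 4, the number called for averaged starvation in Ribo-seq was 0, and it was 1 with the file-name replicate block, 1 with limma-voom and that block, 4 in the 5-read files alone and 0 to 1 with each library left out (1, Ddit3, without the fed knockout 1-read library). For eIF3-80S starvation it was 0, and 1 with limma-voom and 2 with unlisted transcripts at 4 reads. For starved control cells in the 2 assays it was 0 in the main fit. Leaving out the control starved eIF3-80S replicate 2 left Sesn2 unlisted in that state, with a log2 difference of −5.46. The block on title numbers, which differ from the file-name numbers for starved Thiamet-G cells alone, called 0 of the 4. The file-name block changed no other call of the 4.

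Over all transcripts, averaged starvation gave 19 calls, with 0 at a pseudocount of 0.1, without a filter or with quantile scaling, 52 with limma-voom, 7 with the title-number block, 100 with the file-name block, 263 with limma-voom and that block, 0 to 25 with each library left out, 636 in the 5-read files and 0 in the 1-read files. eIF3-80S starvation gave 22 calls, with 2 on RPKM as deposited, 234 with limma-voom, 4 with the title-number block, 0 to 2 with each library left out, 201 with unlisted transcripts at 4 reads and 0 in control cells alone. With quantile scaling 9 of 23 eIF3-80S calls were higher, where 0 of 22 were otherwise. The assay difference gave 2577 calls fed and 3206 starved, with 457 and 385 by quantile scaling, 20 and 10 by limma-voom (all higher), and 1459 to 2960 fed and 1428 to 4949 starved with each library left out. Its change with starvation gave 93, with 357 at a pseudocount of 0.1, 165 as deposited, 1 by quantile scaling, 0 by limma-voom or at 4 reads, and 0 to 1627 with each library left out. Starvation in control cells gave 0, with 6 by limma-voom and 186 with the file-name block added.

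Signs turned as follows, and the cause was not tested. Averaged Sesn2 was −0.35 in the 1-read files. Fed knockout against control Trib3 was −0.20 with limma-voom. Fed eIF3-80S against Ribo-seq Trib3 was 0.80 with quantile scaling, 0.22 as deposited and 0.0325 with limma-voom, and Sesn2 with unlisted transcripts at 4 reads was 0.31 fed and 0.31 starved. The change of the assay difference with starvation was −0.0176 for Trib3 and −0.107 for Chac1 with quantile scaling, −0.0884 for Chac1 as deposited, and for Sesn2 0.12 with limma-voom and 0.00099 at 4 reads.

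With each library left out in turn, starvation in knockout cells ranged over −1.46 to 2.44 for Ddit3, −1.36 to 1.93 for Trib3, −1.39 to 1.58 for Chac1 and −0.22 to 0.56 for Sesn2, and in Thiamet-G cells over −0.10 to 2.53 for Sesn2. Fed knockout against control ranged over −1.44 to 1.87 for Trib3, −0.83 to 2.16 for Chac1 and −1.15 to 1.92 for Sesn2, and starved over −1.48 to 0.36 for Chac1. Fed Thiamet-G against control ranged over −2.38 to 0.95 for Ddit3, −1.68 to 1.6 for Trib3, −1.08 to 1.61 for Chac1 and −1.80 to 1.26 for Sesn2, and starved over −0.0526 to 0.99 for Ddit3 and −0.0133 to 0.96 for Trib3. The knockout interaction ranged over −3.00 to 0.30 for Trib3, −2.72 to 0.27 for Chac1 and −2.90 to 0.17 for Sesn2. The Thiamet-G interaction ranged over −0.48 to 2.84 for Ddit3, −1.14 to 2.16 for Trib3, −1.05 to 1.66 for Chac1 and −1.86 to 1.20 for Sesn2. eIF3-80S starvation of Sesn2 ranged over −0.33 to 2.05. The assay difference ranged over −1.28 to 1.19 for Trib3 and −4.18 to 0.36 for Sesn2 in fed cells, and over −0.11 to 0.90 for Ddit3, −0.43 to 0.84 for Trib3 and −5.46 to 0.46 for Sesn2 in starved cells. Its change with starvation ranged over −0.97 to 1.50 for Trib3, −0.98 to 1.18 for Chac1 and −3.54 to 2.30 for Sesn2. Leaving out 1 library leaves a group with 1 library, which is assumed to vary like the others. The 5 to 78 reads behind eIF3-80S values limit their precision.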
